A study of Mus musculus with 14 samples.

Results

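The genes described here are 47 genes that copy DNA or divide the cell, 21 of them used in S phase and 26 in G2 and mitosis, followed in the mouse colon during dextran sulfate sodium (DSS) colitis. They were chosen by name, and each gene was read from the array probe with the highest mean signal among those whose accession maps to it. A probe was found for 45 of the 47 genes, 20 S-phase and 25 mitotic, and all 45 passed the filter on dim probes. Rrm2 and Prc1 were not analysed here. The 45 genes stand among 15540 genes, or 29523 probes, that were tested. The samples were whole colons of female C57BL/6 mice aged 4 to 6 months on a chow diet, from Flox controls (GR fl/fl), in which both copies of Nr3c1, the gene of the glucocorticoid receptor (GR), are floxed, and from GR iKO mice, which carry the same floxed alleles and Villin-cre. The Villin promoter drives the recombinase in the intestinal epithelium, so the other cells of a GR iKO colon keep the receptor. Mice of both genotypes drank regular water or water with 2.5% DSS, a polysaccharide that damages the colon lining, for 7 days. Each group's total RNA was hybridised with Cy3 label to 1-colour Agilent arrays, with 4 arrays for Flox on water, 4 for GR iKO on water, 3 for Flox on DSS (replicates 1, 2 and 4) and 3 for GR iKO on DSS (replicates 1, 3 and 4). The labels number the samples as replicates but do not say whether each came from a separate mouse, so the p-values measure the spread between these samples. The question of the design is how the colon's response to DSS differs when its epithelium lacks GR.

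A dividing cell licenses its replication origins in G1, copies its DNA in S phase, and then builds a spindle and separates the chromosomes in mitosis. Most genes of the first set are driven by E2F transcription factors at the entry into S phase, while many genes of the second are held back by the DREAM complex and switched on late, through sites called CHR and CCAAT boxes in their promoters. In the healthy colon these genes are read mainly in the lower crypt, where stem and progenitor cells divide to renew the epithelium, and also in proliferating lymphocytes and stromal cells. In bulk tissue, fewer cells of a type and less RNA per cell cannot be told apart.

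The promoters of 6 members are printed because these genes recur in the results: Mcm5 and Mcm6 had large changes in the S-phase set, Ccne1 had none that passed the test, and Kif11, Cdk1 and Mki67 changed in the mitotic set. Each sequence is the 250 bases before the RefSeq start of the gene on GRCm38.p6, read 5′ to 3′ on the gene's strand, and the capitals mark matches on either strand to an E2F core (TTCGCGC or TTGGCGC), a CHR (TTTGAA or TTTAAA) or a CCAAT box (CCAAT). Matches can overlap each other.
Mcm5 promoter, chr8:75109259-75109508, plus strand: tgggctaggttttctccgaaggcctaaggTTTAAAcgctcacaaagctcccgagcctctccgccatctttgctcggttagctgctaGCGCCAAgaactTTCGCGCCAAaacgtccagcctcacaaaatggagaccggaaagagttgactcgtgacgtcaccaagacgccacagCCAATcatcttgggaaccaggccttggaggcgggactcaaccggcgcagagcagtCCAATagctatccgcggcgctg
Mcm6 promoter, chr1:128359706-128359955, minus strand: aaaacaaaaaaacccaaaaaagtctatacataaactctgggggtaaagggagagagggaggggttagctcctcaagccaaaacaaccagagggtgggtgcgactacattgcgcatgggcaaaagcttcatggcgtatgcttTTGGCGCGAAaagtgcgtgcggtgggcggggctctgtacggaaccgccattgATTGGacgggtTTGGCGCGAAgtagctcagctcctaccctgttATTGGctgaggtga
Ccne1 promoter, chr7:38107491-38107740, minus strand: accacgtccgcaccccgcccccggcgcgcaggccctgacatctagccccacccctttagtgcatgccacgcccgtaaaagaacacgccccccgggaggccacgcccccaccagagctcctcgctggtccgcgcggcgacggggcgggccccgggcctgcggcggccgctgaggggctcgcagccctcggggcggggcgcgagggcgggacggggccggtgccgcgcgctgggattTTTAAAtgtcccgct
Kif11 promoter, chr19:37376132-37376381, plus strand: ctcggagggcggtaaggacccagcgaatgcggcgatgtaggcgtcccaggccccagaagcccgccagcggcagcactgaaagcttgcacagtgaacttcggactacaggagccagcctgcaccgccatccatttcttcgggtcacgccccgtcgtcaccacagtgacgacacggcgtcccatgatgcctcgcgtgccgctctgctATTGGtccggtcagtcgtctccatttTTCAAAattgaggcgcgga
Cdk1 promoter, chr10:69352913-69353162, minus strand: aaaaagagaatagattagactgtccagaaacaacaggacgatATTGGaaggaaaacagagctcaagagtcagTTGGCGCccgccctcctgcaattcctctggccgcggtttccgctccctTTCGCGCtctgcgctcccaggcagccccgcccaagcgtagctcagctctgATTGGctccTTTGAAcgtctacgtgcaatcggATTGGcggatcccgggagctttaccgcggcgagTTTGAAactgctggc
Mki67 promoter, chr7:135716380-135716629, minus strand: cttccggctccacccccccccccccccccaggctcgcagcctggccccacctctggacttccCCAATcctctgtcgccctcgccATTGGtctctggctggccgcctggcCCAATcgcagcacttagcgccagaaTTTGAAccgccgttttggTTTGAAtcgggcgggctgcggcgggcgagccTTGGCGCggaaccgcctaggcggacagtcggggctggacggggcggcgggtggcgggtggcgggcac

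A window of 300 bases, from 250 before to 50 after the start, was found for 37 of the 47 members, 17 S-phase and 20 mitotic. Aurkb, Ccna2, Ccne2, Cdc25c, Foxm1, Gins1, Gins2, Kif20a, Mcm4 and Tpx2 had none. An E2F core was present for 7 of 17 S-phase members (41.2%), among them Mcm3, Mcm5, Mcm6, Mcm7, Cdt1, Hells and Uhrf1, and for 3 of 20 mitotic members (15%), Ccnb1, Cdk1 and Mki67. Of all 27025 genes with at least 1 window 4.47% held it. A CHR was present for 18 of 20 mitotic members (90%), all but Bub1 and Nusap1, for 7 of 17 S-phase members (41.2%) and for 30.6% of all genes. A CCAAT box was present for 17 of 20 mitotic members (85%), for 10 of 17 S-phase members (58.8%) and for 41.1% of all genes. The shares in both sets were above those of all genes, with the CHR more frequent in the mitotic set and the E2F core in the S-phase set. Set against the arrays, a CHR stood in 8 of 9 mitotic promoters whose gene was called lower on DSS in Flox colons and in 9 of 10 whose gene was tested and not called. An E2F core stood in 5 of 11 S-phase promoters of called genes and in 2 of 5 of genes not called. A match is a description of the sequence and does not show that a factor binds.

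Levels are given as log2 of the background-corrected signal minus the 75th percentile of that array, so 0 is the array's upper quartile, and the levels of different probes are not set against each other. On the 14 arrays the upper quartile of signal lay between 262, on Flox DSS replicate 4, and 1003, and 62.6% to 71.3% of probes were well above background. All 12 epithelial markers examined, Epcam, Cdh1 and Vil1 among them, were well above background on all 14 arrays. Nr3c1 was at 1.19 ± 0.14 in Flox and 0.39 ± 0.16 in GR iKO colons on water (SD, n = 4 each; exact two-sided permutation test, p = 0.0286, the smallest these arrays allow). On DSS it was at 1.27 ± 0.20 and 0.43 ± 0.05 (SD, n = 3 each; exact permutation p = 0.1, the smallest 3 against 3 can give). Whether this probe lies in the floxed part was not determined. DSS arrays varied more than water arrays, with a median variance ratio of 3.11, so the 2 treatments were given separate weights in the fit.

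In Flox colons, more than 1 in 2 of the replication and division genes were lower after 7 days of DSS. Of the 20 S-phase members 12 fell and none rose, and of the 25 mitotic members 13 fell and none rose, by limma with Benjamini-Hochberg adjustment over all probes at an adjusted p under 0.05. Of all 29523 probes 25.4% were called lower in the same comparison. The median change was -1.07 on the log2 scale in the S-phase set and -1.27 in the mitotic set, against -0.09 over all probes. The 3 Flox DSS arrays lay below all 4 Flox water arrays for 15 of 20 S-phase and 23 of 25 mitotic members, a pattern that 31.5% of all probes showed.

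**Figure D1:**
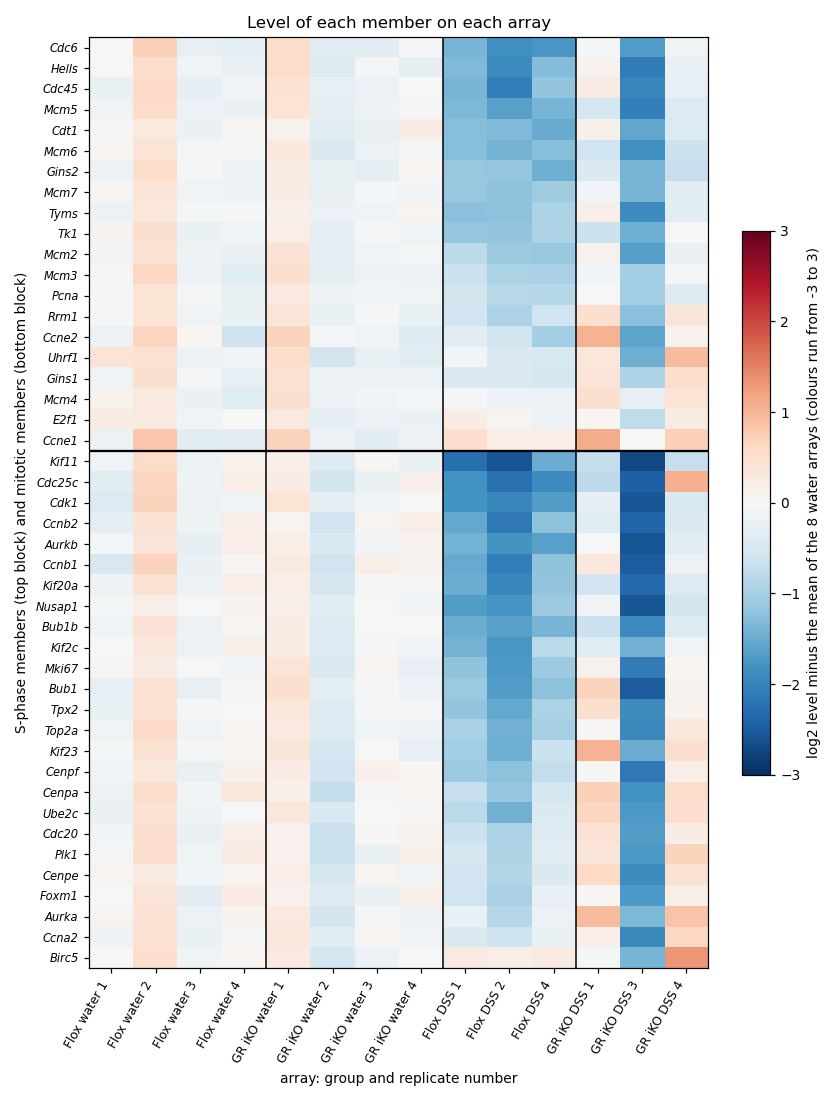
Level of each of the 45 members (rows, S-phase above the line and mitotic below it, each ordered by its change on DSS in Flox colons) on each of the 14 arrays (columns, by group and replicate), as log2 level minus that gene's mean over the 8 water arrays, with colours from -3 to 3. The 3 Flox DSS columns and GR iKO DSS replicate 3 are blue over most rows, while GR iKO DSS replicates 1 and 4 are close to the water columns.

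Most of the genes that license origins fell in Flox colons. The proteins Mcm2 to Mcm7 form the ring of the replicative helicase, and Cdc6 and Cdt1 load it onto DNA. Of these 8 genes 6 fell, with Mcm3 at -0.89 (adjusted p = 0.065) and Mcm4 at -0.09 (adjusted p = 0.82) not passing. Mcm6 read 4.45, 4.81, 4.33 and 4.33 in Flox colons on water and 3.12, 2.99 and 3.11 on DSS. All 3 DSS arrays were below every water array by more than the groups' own range, a change of -1.41 (SE 0.30, adjusted p = 0.0024), or 2.65-fold. Mcm5 read 1.63, 2.29, 1.57 and 1.54 on water and 0.38, 0.11 and 0.34 on DSS. Replicate 2 was the highest water array for this gene, and the groups did not overlap (-1.48, SE 0.37, adjusted p = 0.0060). Cdc6, the loader that is made anew in each cycle, read -2.36, -1.64, -2.60 and -2.63 on water and -3.75, -4.19 and -4.10 on DSS. It had the largest change of the S-phase set, -1.71 (SE 0.45, adjusted p = 0.0077), or 3.26-fold, again without overlap. Cdt1 read 2.34, 2.60, 2.10 and 2.36 on water and 1.03, 0.96 and 0.78 on DSS, and the groups were well apart (-1.42, SE 0.31, adjusted p = 0.0025).

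The genes that act at the moving fork followed in part. Cdc45 (-1.55, adjusted p = 0.013) and Gins2 (-1.31, adjusted p = 0.0030), which join the Mcm ring to form the active helicase, fell, while Gins1, another subunit of the same complex, was at -0.47 (adjusted p = 0.29). Pcna, the clamp that holds DNA polymerases on the template, read 3.78, 4.22, 3.76 and 3.60 on water and 3.26, 2.97 and 2.97 on DSS. The DSS values were all lower, and the change was among the smaller ones that passed (-0.77, SE 0.26, adjusted p = 0.026). Of the genes that supply nucleotides, thymidylate synthase Tyms (-1.17, adjusted p = 0.013) and thymidine kinase Tk1 (-1.15, adjusted p = 0.0082) fell and Rrm1, the large subunit of ribonucleotide reductase, was at -0.72 (adjusted p = 0.12). Hells, a chromatin remodeller needed for DNA methylation, read -1.15, -0.62, -1.25 and -1.35 on water and -2.46, -3.04 and -2.44 on DSS. The groups were more than 1 log2 unit apart (-1.55, SE 0.46, adjusted p = 0.014). Uhrf1, which brings the maintenance DNA methyltransferase to copied DNA, was at -0.48 (adjusted p = 0.44).

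Of the regulators of the entry into S phase, E2f1, Ccne1 and Ccne2, none passed the test in Flox colons. Ccne1, the cyclin that activates Cdk2 at the start of S phase, read 0.19, 1.20, 0.06 and 0.02 on water and 0.87, 0.56 and 0.58 on DSS. The DSS arrays sat inside the wide water range, which replicate 2 sets (0.30, SE 0.46, adjusted p = 0.61). E2f1, a transcription factor of many of the genes above, read -1.71, -1.64, -2.08 and -1.96 on water and -1.72, -1.86 and -2.13 on DSS. Its groups overlapped and its change was close to 0 (-0.06, SE 0.26, adjusted p = 0.88). Ccne2 was at -0.63 with an adjusted p of 0.36.

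In the mitotic set, the genes that start mitosis had some of the largest changes. Of 6 such genes, the cyclins Ccna2, Ccnb1 and Ccnb2, the kinase Cdk1, its activating phosphatase Cdc25c and the transcription factor Foxm1, 4 fell. Cdk1, the kinase that drives entry into mitosis, read -0.14, 0.92, 0.10 and 0.14 in Flox colons on water and -1.54, -1.68 and -1.41 on DSS. The 3 DSS values were close together and more than 1 log2 unit below the water arrays (-1.80, SE 0.47, adjusted p = 0.0075), a fall of 3.48-fold. Its partner Ccnb2 read 2.48, 3.20, 2.61 and 2.97 on water and 1.23, 0.63 and 1.54 on DSS, with no overlap (-1.68, SE 0.44, adjusted p = 0.0074). Cdc25c read -3.76, -2.77, -3.58 and -3.23 on water and -5.24, -5.67 and -5.33 on DSS. It was dim, well above background on 11 of the 14 arrays, and its groups were also apart (-2.08, SE 0.57, adjusted p = 0.010). Ccna2 at -0.43 (adjusted p = 0.45) and Foxm1 at -0.68 (adjusted p = 0.16) did not pass.

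Genes of the spindle and of chromosome structure fell as well. Of 6 kinesins and spindle proteins 5 fell, and the exception, Kif23, a kinesin of the dividing cell's midbody, was at -1.14 (adjusted p = 0.053). Without GR iKO DSS replicate 3, which enters here only through the shared spread, Kif23 passed as well (adjusted p = 0.0080). Kif11, the motor that pushes the spindle poles apart, had the largest change of all members. It read -2.35, -1.70, -2.44 and -2.14 on water and -4.50, -4.84 and -3.75 on DSS, more than 1 log2 unit below the lowest water array (-2.21, SE 0.42, adjusted p = 0.0011), or 4.62-fold. Kif2c, a kinesin that takes microtubules apart at the centromere, read -2.34, -1.98, -2.51 and -2.16 on water and -3.74, -4.08 and -3.14 on DSS. Again no DSS array reached the water arrays (-1.41, SE 0.31, adjusted p = 0.0027). Mki67, the protein used in histology to stain cycling cells, read 3.90, 4.13, 3.86 and 3.79 on water and 2.66, 2.15 and 2.77 on DSS. The water arrays were tightly grouped and the DSS arrays all lay lower (-1.39, SE 0.42, adjusted p = 0.016), a fall of 2.62-fold. Top2a, the enzyme that untangles sister chromatids, read -0.33, 0.37, -0.31 and -0.15 on water and -1.18, -1.65 and -1.20 on DSS, without overlap (-1.24, SE 0.42, adjusted p = 0.029).

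Mitotic kinases, checkpoint and centromere genes moved less evenly. Aurkb, the kinase that corrects chromosome attachment, fell by 1.67 (adjusted p = 0.0083), whereas Aurka at -0.53 (adjusted p = 0.34) and Plk1 at -0.72 (adjusted p = 0.21), kinases of the spindle poles, did not pass. Plk1 read 1.55, 2.10, 1.46 and 1.85 on water and 1.09, 0.70 and 1.25 on DSS, so its arrays did not overlap although the test was not passed. Of the 4 genes of the spindle checkpoint and of the complex it restrains, Bub1b fell (-1.55, adjusted p = 0.0018), and Bub1, Cdc20 and Ube2c lay between -1.35 and -0.76 with no call. None of the centromere genes Cenpa, Cenpe and Cenpf passed on the probes used, with changes from -1.05 to -0.71, but other probes of Cenpe (-1.61 and -2.43) and of Cenpf (-1.31) did. These misses depend on the spread that the test shares between the groups. In the fit without GR iKO DSS replicate 3 the Flox changes were the same. Cenpa, Cenpe, Cenpf, Bub1 and Ube2c then passed (adjusted p = 0.031, 0.022, 0.0085, 0.0039 and 0.024). Cdc20 (0.056), Plk1 (0.064) and Aurka (0.13) still did not. Birc5, known as survivin, was the only mitotic member with a change above 0 in Flox colons, at 0.13 (SE 0.44, adjusted p = 0.83). It read 3.46, 3.99, 3.35 and 3.56 on water and 3.75, 3.65 and 3.75 on DSS, which overlap.

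**Figure D2:**
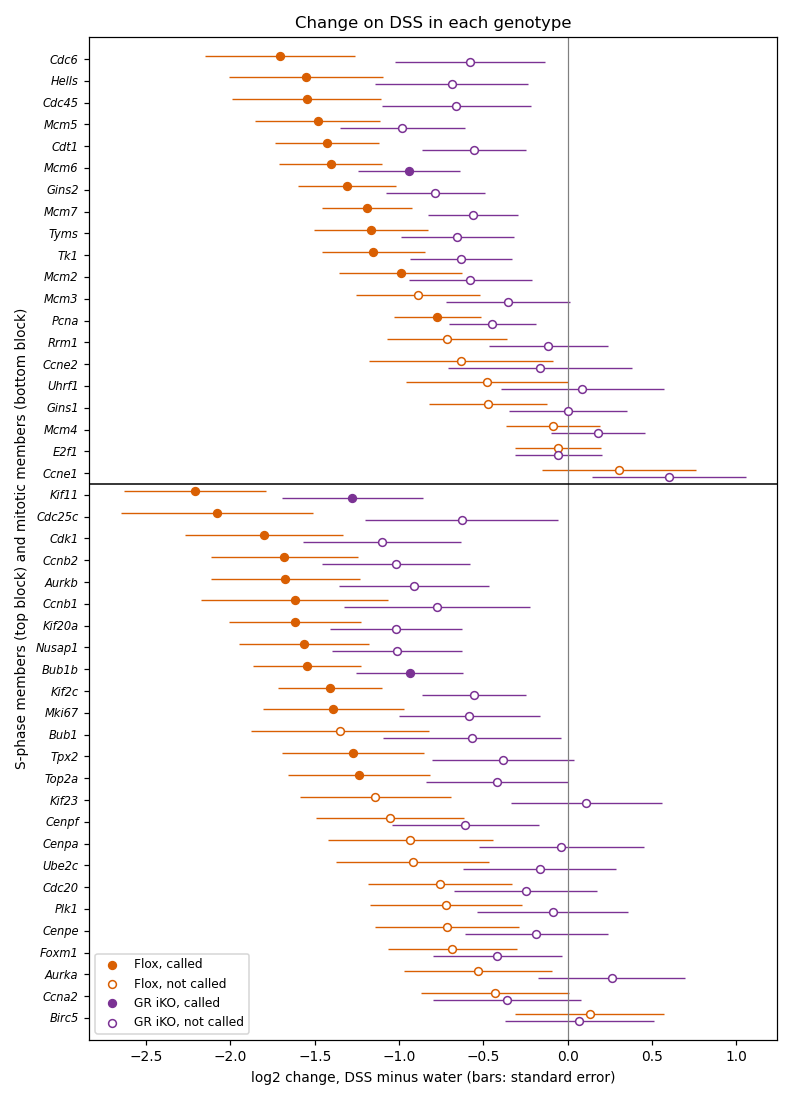
Change on DSS against water (horizontal axis, log2, bars are standard errors) of each of the 45 members in Flox and GR iKO colons, with filled points for those called at an adjusted p under 0.05. In Flox colons 25 points are filled, all left of 0, and in GR iKO colons 3 are filled.

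The Flox result rests on 3 DSS arrays. Without Flox DSS replicate 1 the calls were 7 S-phase and 9 mitotic, without replicate 2 they were 6 and 7, and without replicate 4 they were 10 and 12. All of them were lower on DSS, and of all 29523 probes 4538, 4768 and 6973 were called lower in the same fits. Without GR iKO DSS replicate 3, which enters only the shared spread, the calls were 14 and 19, with 8066 of all probes called lower. Within each slide, the mean of the S-phase members was lower on the Flox DSS than on the Flox water array by values of -0.75, -1.50 and -0.73, and that of the mitotic members by -0.96, -1.91 and -0.97, so the direction was the same on every slide that held both.

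In GR iKO colons the same treatment gave few calls. Mcm6 fell by 0.94 (SE 0.30, adjusted p = 0.028), and in the mitotic set Kif11 fell by 1.28 (SE 0.42, adjusted p = 0.030) and Bub1b by 0.94 (SE 0.32, adjusted p = 0.034). These are 1 of 20 S-phase and 2 of 25 mitotic members, fewer than the 19.7% of all probes called lower in this comparison. The median change was -0.56 in both sets, against -0.02 over all probes. All 3 GR iKO DSS arrays lay below the GR iKO water arrays for 3 of 20 S-phase and 2 of 25 mitotic members, and for 23.7% of all probes. An unadjusted p under 0.05 was reached by 3 of 20 S-phase and 6 of 25 mitotic members and by 13942 of 29523 probes, a larger share. The intervals are wide, since the standard errors ran from 0.26 to 0.57 across the members, and a missed threshold does not show that a gene stayed level. The fit takes the spread on DSS to be equal in both genotypes, so each member has the same standard error in Flox and GR iKO colons. In the members it was larger in GR iKO, with a median SD of 1.30 against 0.29 in the mitotic set. The errors are therefore likely too small for GR iKO, the 3 calls included, and too large for Flox colons.

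The 3 GR iKO DSS arrays did not resemble each other in these genes. Relative to the mean of the 8 water arrays, the mean of the S-phase members was 0.12 on replicate 1, -1.36 on replicate 3 and -0.03 on replicate 4. That of the mitotic members was 0.11, -2.03 and 0.17. The Flox DSS arrays ran from -1.01 to -0.77 for the S-phase and from -1.46 to -0.87 for the mitotic set, so that replicates 1 and 4 of GR iKO lay above and replicate 3 below all of them. The water arrays ran from -0.26 to 0.49 and from -0.47 to 0.45. The median standard deviation of a member over the GR iKO DSS arrays was 0.84 in the S-phase and 1.30 in the mitotic set, against 0.34 for all probes, while over the Flox DSS arrays it was 0.18 and 0.29, against 0.26.

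**Figure D3:**
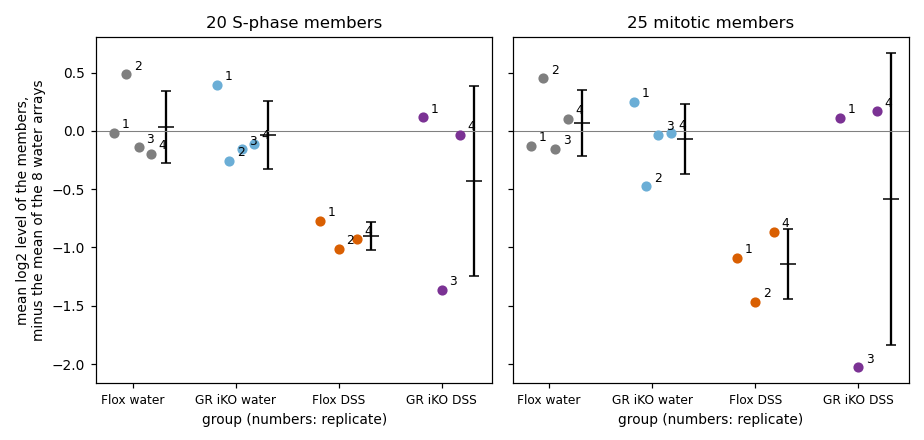
Mean log2 level of the 20 S-phase members (left) and of the 25 mitotic members (right) on each array, minus the mean of the 8 water arrays, by group; numbers are replicates and bars are the group mean ± SD. GR iKO DSS replicate 3 lies at -1.36 and -2.03, and replicates 1 and 4 lie within the range of the water arrays.

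The split was seen in gene after gene. Mki67 read 4.28, 3.44, 3.96 and 3.63 in GR iKO colons on water and 4.01, 1.78 and 3.94 on DSS. Replicates 1 and 4 were inside the water range and replicate 3 was more than 1 log2 unit below it. Kif11 read -2.07, -2.63, -2.21 and -2.45 on water and -2.96, -4.96 and -2.94 on DSS. It is among the few members in which replicates 1 and 4 were also below the water arrays, although by less than replicate 3. Mcm6 behaved in the same way, with 4.71, 3.97, 4.22 and 4.36 on water and 3.81, 2.56 and 3.76 on DSS. Mcm5 read 2.13, 1.45, 1.59 and 1.68 on water and 1.20, -0.32 and 1.32 on DSS, all below the water arrays (-0.98, SE 0.37, adjusted p = 0.053). For Pcna the values were 4.11, 3.67, 3.70 and 3.70 on water and 3.81, 2.79 and 3.43 on DSS, with replicate 1 inside the water range (-0.45, adjusted p = 0.19).

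In other members of both sets replicate 3 was likewise the lowest of the GR iKO DSS arrays. Cdc6 read -1.79, -2.67, -2.68 and -2.42 on water and -2.41, -4.03 and -2.48 on DSS (-0.58, adjusted p = 0.33). Hells read -0.58, -1.51, -1.19 and -1.43 on water and -1.03, -3.24 and -1.33 on DSS (-0.69, adjusted p = 0.26). In both genes replicates 1 and 4 overlapped the water arrays. Cdk1 read 0.67, -0.03, 0.15 and 0.27 on water and -0.01, -2.30 and -0.19 on DSS (-1.10, adjusted p = 0.082). Ccnb2 read 2.86, 2.19, 2.84 and 2.97 on water and 2.41, 0.36 and 2.32 on DSS (-1.02, adjusted p = 0.085). For these partners in entering mitosis replicate 3 was the lowest of all 14 arrays. Top2a read 0.07, -0.60, -0.34 and -0.39 on water and -0.18, -2.14 and 0.12 on DSS (-0.42, adjusted p = 0.46). Cdc25c read -3.21, -3.97, -3.63 and -3.27 on water and -4.22, -5.88 and -2.34 on DSS (-0.63, adjusted p = 0.41). Here replicate 4 was above every water array, and replicate 1 just below them. Ccne1 read 1.05, 0.20, 0.03 and 0.23 on water and 1.49, 0.37 and 1.08 on DSS, with replicates 1 and 4 above all 4 water arrays (0.60, SE 0.46, adjusted p = 0.33).

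Counted against the range of the 4 water arrays of the same genotype, GR iKO DSS replicate 3 was below it in 19 of 20 S-phase and all 25 mitotic members. Replicate 1 was below it in 4 and 4 members and above it in 5 and 10, and replicate 4 was below it in 7 and 4 and above it in 3 and 12. The 3 Flox DSS arrays were below their water range in 15 to 18 S-phase and 23 to 24 mitotic members and above it in none. Over all probes each DSS array was below its water range for 38.6% to 46.7%. Each was above it for 10105 to 11924 of 29523 probes, with 10498 on GR iKO DSS replicate 1 and 11924 on replicate 4. Values above the water range are therefore not particular to the members. The result in GR iKO colons therefore turns on which arrays are used. Without replicate 3 no S-phase member was called and the only mitotic call was Aurka, which was higher on DSS (1.01, SE 0.33, adjusted p = 0.036), and the medians were -0.04 and 0.24. Without replicate 1 the calls were 6 and 6, all lower, with 4834 of 29522 probes called lower. Without replicate 4 they were 3 and 4, all lower, with 4419 of 29523 probes called lower. Leaving out a GR iKO water array gave 1 to 3 S-phase calls and 0 (without replicate 1) to 5 (without replicate 2) mitotic calls. Within slides the mean of the S-phase members on GR iKO DSS against GR iKO water was -1.21 for replicate 3, -0.28 for replicate 1 and 0.08 for replicate 4. That of the mitotic members was -0.14 for replicate 1 and 0.19 for replicate 4 and was lowest for replicate 3.

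On water the 2 genotypes were close. No member was called, against 0.0237% of all probes (7), and no member had an unadjusted p under 0.05, against 985 of 29523 probes. The median difference, GR iKO minus Flox, was -0.05 in the S-phase set, with values from -0.29 to 0.08, and -0.15 in the mitotic set, with values from -0.29 to 0.01. The 5 members with the smallest p were E2f1, Plk1, Uhrf1, Cenpa and Kif2c, all with an adjusted p of 1.00. E2f1 read -1.66, -2.21, -2.12 and -2.15 in GR iKO colons against -1.71, -1.64, -2.08 and -1.96 in Flox (-0.19, SE 0.15). Plk1 read 1.71, 0.95, 1.36 and 1.75, Flox values as above (-0.29, SE 0.27). In each case the groups overlapped. Uhrf1 read 1.01, -0.09, 0.25 and 0.12 against 0.88, 0.92, 0.29 and 0.37 in Flox (-0.29, SE 0.29). Cenpa, the histone that marks centromeres, read -0.50, -1.36, -0.72 and -0.60 against -0.83, -0.11, -0.73 and -0.34 (-0.29, SE 0.29). Kif2c read -2.12, -2.74, -2.39 and -2.41 in GR iKO colons on water (-0.17, SE 0.18). These groups overlapped too, and GR iKO replicate 2 was the lowest array in all 5 genes.

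On DSS, 19 of 20 S-phase and 24 of 25 mitotic members were at a higher mean level in GR iKO than in Flox colons, but none passed the test. The medians were 0.46 and 0.61, against 0.03 over all probes, and 0.0203% of all probes (6) were called. No member had an unadjusted p under 0.05, while 5205 of 29523 probes did. The smallest adjusted p was 0.34, for Cdt1 (0.77, 95% interval -0.09 to 1.63). Cdt1 read 2.45, 0.75 and 1.88 on GR iKO DSS arrays against 1.03, 0.96 and 0.78 on Flox DSS arrays. Kif23 read 0.56, -1.98 and -0.02 against -1.51, -1.94 and -1.12 (1.05, 95% interval -0.20 to 2.29). In both genes replicates 1 and 4 were above all Flox DSS arrays and replicate 3 was below them. Cdc6 (1.04, interval -0.20 to 2.29) and Cdc25c (1.27, interval -0.32 to 2.86) had the next differences, with the values given above. Kif2c read -2.69, -3.77 and -2.45 on GR iKO DSS arrays (0.68, interval -0.18 to 1.54), with replicate 3 inside the Flox range of -4.08 to -3.14.

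The array pattern itself was shared by nearly all members. GR iKO DSS replicates 1 and 4 lay above all 3 Flox DSS arrays for 19 of 20 S-phase members, all but E2f1, and 24 of 25 mitotic members, all but Birc5, and for 21.1% of all probes. With replicate 3 also below all Flox DSS arrays, the pattern was met by 16 of 20 S-phase and 23 of 25 mitotic members and by 4.92% of all probes. The pattern was described after the arrays had been seen and carries no test. The 2 slides that held a DSS array of each genotype gave opposite signs. On the slide with GR iKO DSS replicate 3 and Flox DSS replicate 1, all 45 members were lower in GR iKO, by medians of -0.53 in the S-phase and -0.96 in the mitotic set. On the slide with replicate 4 of both, all 45 were higher, by medians of 0.95 and 1.00.

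**Figure D4:**
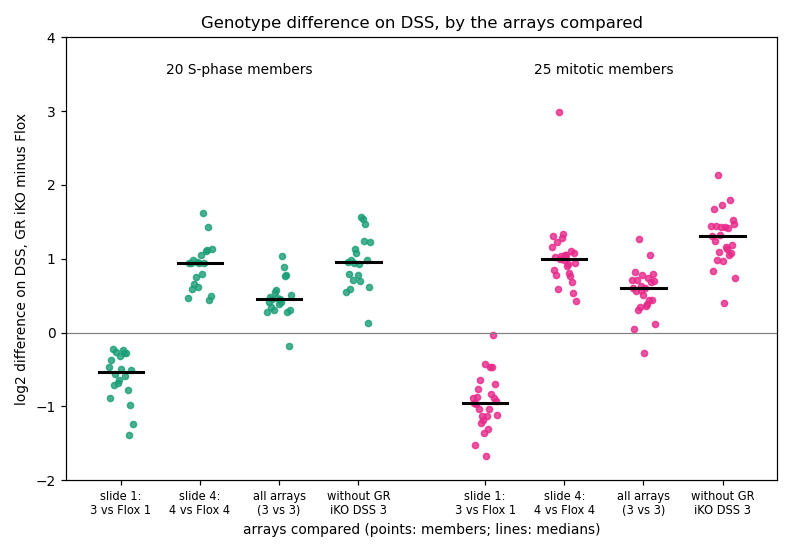
Difference on DSS, GR iKO minus Flox (vertical axis, log2), of each member (points) with medians (lines), for all arrays, without GR iKO DSS replicate 3, and within the 2 slides that held a DSS array of each genotype. The medians are 0.46 and 0.61 with all arrays and change sign between the 2 slides.

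Without GR iKO DSS replicate 3, all 45 members were at a higher level in GR iKO than in Flox colons on DSS, with medians of 0.95 and 1.31. None was called even then, against 2.43% of all probes, and the smallest adjusted p was 0.0504, for Kif23 (1.80, SE 0.42). An unadjusted p under 0.05 was reached by 11 of 20 S-phase and 23 of 25 mitotic members and by 6510 of 29517 probes. Replicate 3 was left out after it had been seen to be the lowest DSS array in most members. The rise and the small p-values follow in part from that choice. Without replicate 1 instead, the medians were 0.22 and 0.17, and without replicate 4 they were 0.28 and 0.24. In neither fit did a member reach an unadjusted p under 0.05, which 4141 of 29522 and 4369 of 29523 probes did. Nr3c1 read 0.45 on replicate 3, and the GR iKO DSS group, which includes it, was at 0.43 ± 0.05 (SD, n = 3). This gene checks the genotype label only and cannot show whether the array differs in tissue or RNA quality. In some cell type lists given below replicate 3 was the highest of its group. The array was kept, and values without it are given beside each comparison of the members that it decides.

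The interaction, which asks whether the DSS change differed between genotypes, gave no call among the members or in any probe (0% of 29523), with 4369 probes at an unadjusted p under 0.05 and no member among them. It was above 0 for all 20 S-phase and 24 of 25 mitotic members, with medians of 0.52 and 0.75 against 0.03 over all probes. The members with the smallest p were again Cdt1 (0.87, SE 0.44, adjusted p = 0.38), Kif23 (1.25, SE 0.63, adjusted p = 0.38), Kif2c (0.85, SE 0.44, adjusted p = 0.39), Cdc25c (1.45, SE 0.81, adjusted p = 0.43) and Cdc6 (1.13, SE 0.63, adjusted p = 0.43). Without GR iKO DSS replicate 3 the interaction was above 0 for all 45 members, with medians of 0.99 and 1.43. An unadjusted p under 0.05 was reached by 12 of 20 S-phase and 22 of 25 mitotic members and by 5544 of 29517 probes. No member was called in that fit either, while 48 probes (0.163%) were. Here too the array was chosen after its values had been seen. Without replicate 1 instead, the medians were 0.28 and 0.34, and without replicate 4 they were 0.31 and 0.39. No member then had an unadjusted p under 0.05, which 3560 of 29522 and 3820 of 29523 probes had. The count over all 29523 probes also depends on the weights and the scaling. It was 2065 under array quality weights and 8480, all higher, under spike-in scaling. Among the 8480 were 3 of 20 S-phase and 8 of 25 mitotic members, shares below and near that of all probes. With all arrays and the 75th percentile scaling, the larger number of calls in Flox than in GR iKO colons did not come with a called difference between the genotypes in any member.

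Genes of the same pathways outside the 47 were read from lists of their own. Of 46 other replication genes, 27 fell and none rose in Flox colons (median -0.86), while in GR iKO colons 14 fell and 2 rose (median -0.37). The 14 that fell in GR iKO colons are a larger share than the 19.7% of all probes called lower, unlike the S-phase members, of which 1 of 20 was called. Orc1, a subunit of the origin recognition complex, fell by 2.82 (adjusted p = 0.00011) in Flox and by 1.53 (adjusted p = 0.0069) in GR iKO colons. It read -1.55, -1.58, -1.79 and -2.22 in Flox on water and -5.21, -4.88 and -3.71 on DSS, and -1.62, -1.74, -1.67 and -1.88 in GR iKO on water and -2.73, -4.30 and -2.74 on DSS. In both genotypes every DSS array was below every water array, and replicate 3 was the lowest of GR iKO. Prim1, the primase that starts each strand, fell by 1.69 and by 1.44, Pole2, a subunit of the leading-strand polymerase, by 1.64 and by 1.31, and Dscc1, of a clamp loader, by 1.98 and by 1.20. The genes that rose in GR iKO colons were Prim2 (0.59, adjusted p = 0.035) and Pold3 (0.34, adjusted p = 0.029), named after their values were seen. Of 50 other mitosis genes, 34 fell in Flox (median -1.29) and 5 in GR iKO colons (median -0.58), and none rose in either. The mean of the mitosis list was 0.15, -1.79 and -0.09 on GR iKO DSS replicates 1, 3 and 4. The GR iKO values of both lists thus include a low replicate 3, and calls without that array alone are not given for them. Kif18a, a kinesin that aligns chromosomes, fell by 2.21 and by 1.09, Aspm, a spindle pole protein, by 1.84 and by 1.29, and the kinase Pbk by 1.68 and by 1.40. Ttk, a kinase of the spindle checkpoint, was well above background on no Flox DSS array and was at least 2.30-fold lower there than on water (adjusted p = 0.0053); in GR iKO colons it was at -1.42 (adjusted p = 0.077).

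Regulators of G1 and inhibitors of the cycle moved in both directions. Of 19 G1 regulators, 7 fell and 1 rose in Flox colons, and 5 fell and 1 rose in GR iKO colons. Over all probes 25.4% were called lower and 21.8% higher in Flox and 19.7% lower and 19% higher in GR iKO colons, so the 5 that fell in GR iKO colons are close to the share of all probes. The gene that rose in both was the D-type cyclin Ccnd3 (1.09 and 0.59, adjusted p = 0.00011 and 0.0073), chosen after its values were seen, which read 1.71, 1.75, 1.54 and 1.46 in Flox on water and 2.91, 2.85 and 2.35 on DSS. Cdk6, a kinase that D-type cyclins activate, fell by 1.36 and by 1.22, E2f5, an E2F that binds repressor complexes, by 1.05 and by 1.12, and Rbl1, a relative of the retinoblastoma protein, by 1.09 and by 0.83. Skp2, which targets the inhibitor p27 for degradation, was well above background on no Flox DSS array and at least 1.75-fold lower there than on water (adjusted p = 0.0095). Myc did not pass, at -0.31 in Flox and -0.15 in GR iKO colons, and Ccnd1 was not analysed here. Of 19 inhibitors of cyclin-dependent kinases and targets of p53, 5 rose and 3 fell in Flox and 4 rose and 2 fell in GR iKO colons. Gadd45g, a stress-induced growth arrest gene, rose by 2.28 in Flox (adjusted p = 0.017) and was at 1.43 in GR iKO colons (adjusted p = 0.12). Cdkn2b, the inhibitor p15, fell by 1.94 and by 1.36, and Bbc3, a p53 target that promotes cell death, by 1.45 and by 0.95, while Plk3 fell in Flox by 1.78 (adjusted p = 0.045) and was at -0.66 in GR iKO colons. Cdkn1a, the inhibitor p21, read 2.72, 2.78, 2.65 and 2.76 in Flox on water and 2.84, 2.30 and 1.94 on DSS, which overlap (-0.37, adjusted p = 0.081). In GR iKO colons it read 2.68, 2.64, 2.59 and 2.66 on water and 2.99, 3.02 and 3.41 on DSS and rose by 0.50 (adjusted p = 0.028), with all DSS arrays above the water arrays, replicate 3 included.

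**Figure D5:**
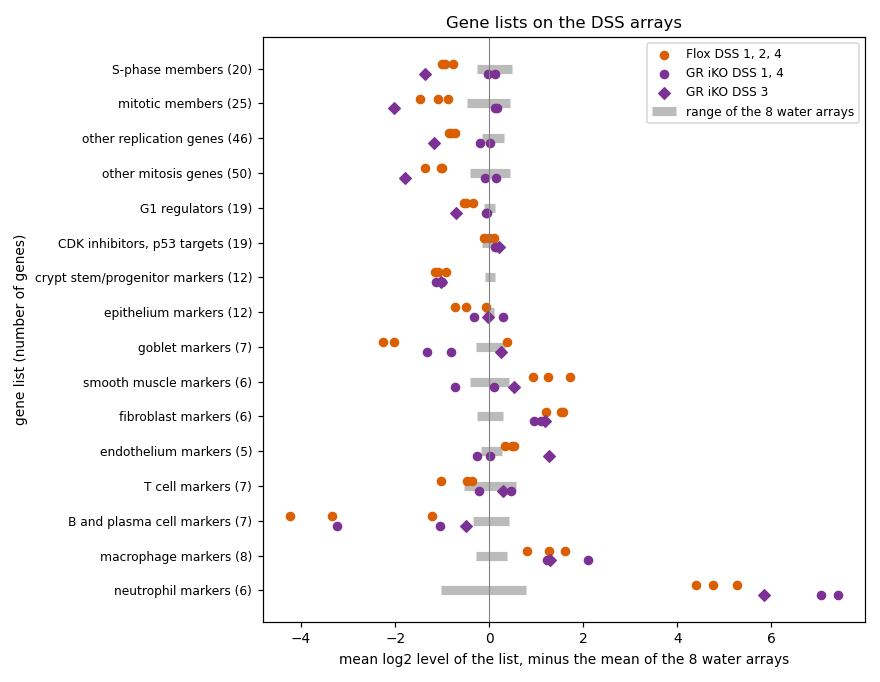
Mean log2 level of each gene list (vertical axis, number of genes in brackets) on each DSS array, minus the mean of the 8 water arrays, with the range of the water arrays as a grey bar. GR iKO DSS replicate 3 is the lowest DSS array for both member sets, other replication and other mitosis genes, and does not stand apart in the crypt stem and progenitor markers.

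Markers of the cell types in the tissue were read beside the members. The mean of the 12 crypt stem and progenitor markers was low on every DSS array, at -1.16, -1.08 and -0.92 in Flox colons. In GR iKO colons the mean was -1.13 on replicate 1, -1.03 on replicate 3 and within the Flox range on replicate 4. In Flox and GR iKO colons 8 and 7 of the 12 were called lower. The list was mixed, since in each genotype 3 of the 12 had a change above 0 and 1 was called higher. Lgr5, the marker of crypt base stem cells, fell by 3.64 and by 4.05, and Ascl2, a transcription factor of the same cells, by 2.16 and by 2.03. On the mean of this list GR iKO replicate 3 lay between replicates 1 and 4. Epithelial markers (12 genes) were at -0.49, -0.72 and -0.08 in Flox and at -0.31, -0.03 and 0.29 in GR iKO replicates 1, 3 and 4. Smooth muscle markers (6 genes) were at 1.24, 0.93 and 1.73 in Flox and at -0.73, 0.53 and 0.09 in GR iKO colons, and in this list the Flox arrays were above all GR iKO arrays and replicate 3 was the highest of its group. Endothelial markers (5 genes) were at 0.33, 0.49 and 0.52 in Flox and at -0.26, 1.28 and 0.01 in GR iKO colons, so replicate 3 was the highest of all DSS arrays. Neutrophil markers (6 genes) were at 5.26, 4.75 and 4.39 in Flox and at 7.41, 5.84 and 7.06 in GR iKO colons, where replicate 3 was the lowest. The B and plasma cell list (7 genes) ran from -4.23 to -1.22 in Flox and was at -1.04, -0.49 and -3.25 in GR iKO colons. Macrophage markers (8 genes) were at 1.26, 1.61 and 0.80 in Flox and at 2.11, 1.29 and 1.23 in GR iKO colons. T cell markers (7 genes) were at -1.03, -0.47 and -0.37 in Flox and at 0.47, 0.29 and -0.22 in GR iKO colons. Goblet cell markers (7 genes) were at -1.33, 0.25 and -0.82 and colonocyte markers (8 genes) at -1.07, 0.07 and -0.09 on GR iKO replicates 1, 3 and 4, so in both lists replicate 3 was the highest of its group and within the range of the water arrays. On Flox DSS arrays the goblet list was at -2.03, -2.26 and 0.39 and the colonocyte list at -0.61, -1.02 and 0.25. The part of any of these lists in the members' values, the crypt and B cell lists included, was not tested.

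A second probe could be read for 15 members (17 probes). In Flox colons none of these differed in sign from the probe used. The other probe of Bub1, well above background on all 14 arrays, was at -0.27 (adjusted p = 0.35) against -1.35 for the probe used, neither of them called. In the call 4 differed: 2 other probes of Cenpe (-1.61 and -2.43, against -0.71 for the probe used), 1 of Cenpf (-1.31 against -1.05) and 1 of Kif23 (-1.42 against -1.14) passed the test. In GR iKO colons a second probe of Cdc25c (-1.59, adjusted p = 0.019) and another of Cenpe (-1.28, adjusted p = 0.034) passed, and those of Bub1, Ccne2, Gins1 and Uhrf1 differed in sign with no call on either probe.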

How the data were processed

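Per the labels and file headers, the authors labelled 500 ng of total colon RNA with Cy3, hybridised it to Agilent whole mouse genome arrays and extracted spots with Agilent Feature Extraction, and the submitters' processing notes also list Partek 6.6. The deposited scanner files hold the intensity of each spot, background-subtracted in 1 column. The deposited value table holds log2 values normalized between arrays by a method not given in the sources used here (every array has a median of 6.05), and it served as an alternative. Of 45018 spots per array, 1639 controls were left out, spots of a probe were averaged (41174 probes), and log2 intensity minus the array's 75th percentile was used. Probes well above background on at least 3 arrays were tested (29523) with limma 3.58.1 in R 4.3.3 (lmFit and eBayes, 4 group means, all 14 arrays, 1 arrayWeights value for water, 1.70, and 1 for DSS, 0.495), two-sided, with Benjamini-Hochberg adjustment over all probes of each of 5 comparisons. A plain spread shared by all arrays was an alternative. The fit was also run on simulated data with independent noise and the same DSS spread in both genotypes. That setting differs from the members here, so the run does not check their calls. Nr3c1 was compared by an exact permutation test in scipy 1.17.1. Probes were named through RefSeq accessions.

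The members and gene lists were chosen with earlier results of these data known. Values on every array are given for Mki67, Top2a, Pcna and Ccne1, for the 4 members of each set with the largest mean DSS change over both genotypes, and for the 5 with the smallest p in each genotype comparison and the interaction. Of the other lists, the 4 called genes with the largest change are named, with Cdkn1a and Myc. Alternatives were other weights, blocks for slide or replicate number, normexp background correction (offset 50, on the median spot signal, since the files used here have no mean signal column), quantile, array median or spike-in scaling (7 spike-in probes), other filters on dim probes, a trended robust prior, the mean of a gene's probes, and each array left out. Replicate numbers did not pair the arrays: over 18 pairs with the same number, the correlation of deviations from the group means ran from -0.23 to 0.31 (median 0.10), so the fit has no replicate block.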

Additional observations from a re-analysis of the deposited data

Results flagged for a closer look

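In the 2 water groups of 4 arrays, the highest or lowest array lay far from the others by Dixon's test in 7 of 96 groups of values, where chance gives about 1 in 20. In the S-phase set, GR iKO water replicate 1 was high in Pcna, at 4.11 with the other arrays between 3.67 and 3.70. It was also high in Gins1, at -0.016 with the others between -0.66 and -0.64, and in E2f1, at -1.66 with the others between -2.21 and -2.12. Flox water replicate 2 was high in Mcm5, at 2.29 with the others between 1.54 and 1.63, and in Ccne1, at 1.20 with the others between 0.02 and 0.19. In the mitotic set, GR iKO water replicate 2 was low in Ccnb2, at 2.19 with the others between 2.84 and 2.97, and in Cdc20, the activator of the anaphase-promoting complex, at 1.98 with the others between 2.65 and 2.75. Groups of 3 DSS arrays were not examined in this way.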

How the results depend on the processing

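The direction of the Flox result held for the S-phase and mitotic medians in all settings tried, while the counts of called members moved. With S-phase and mitotic members in that order, the calls on DSS in Flox were 12 and 13, and 20 and 25 with spike-in scaling, and the mitotic calls were 22 with only the groups compared and 21 with array quality weights. Leaving out each array in turn gave 6 to 14 S-phase and 7 to 19 mitotic calls. In GR iKO the calls were 1 and 2. The S-phase count was 3 with 1 shared spread, with array median scaling and with the trended robust prior, 2 with the deposited value table and with a filter at 7 arrays, 0 with array quality weights and 11 with spike-in scaling. The mitotic count was 0 with only the groups compared, 1 with array quality weights, with slide as a block and with normexp, 4 with median scaling and with the trended robust prior, and 10 with spike-in scaling. Under spike-in scaling 11854 of all 29523 probes were called lower in GR iKO colons. Leaving out each array gave 0 to 6 calls in both sets. The genotype comparisons gave no member call in any setting. The interaction gave none except with spike-in scaling (3 and 8, where 8480 of 29523 probes were called). Among all probes, the genotype comparison on DSS went from 6 calls to 3903 with 1 shared spread and to 3494 with array quality weights. Other pathway genes called numbered 77 in Flox (133 with spike-in scaling, 40 to 92 with arrays left out) and 33 in GR iKO (62 with spike-in scaling, 23 to 38).

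Spike-in scaling moved the median of all probes on DSS to -2.41 in Flox and -0.95 in GR iKO colons. It turned Ccne1 to -2.01 and Birc5 to -2.19 in Flox colons, and the Nr3c1 difference on DSS to 0.38. Under normexp the calls of all probes in Flox were 9441 higher and 4829 lower, against 6432 and 7497, under array median scaling they were 5420 and 9267, and under spike-in scaling 219 and 25031. The cause was not tested. With a replicate block the Flox calls were 13 and 14 and the GR iKO calls 1 and 2, and no other call count of the members changed. Precision is limited by the 3 DSS arrays of each genotype and, for dim probes such as Cdc25c, by signal near background.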
